A study of Drosophila melanogaster with 18 samples.

Results

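RNA interference against fl(2)d was compared with a control treatment in S2R+ cells, an adherent Drosophila line of embryonic origin with features of blood cells. The comparison holds 6 of the 18 libraries of the series, chosen by their treatment label: 3 libraries named Fl2d and 3 named Ctr. The Fl2d cells received 10 µg of double-stranded RNA against Fl(2)d and the Ctr cells the same amount against LacZ, a bacterial gene with no fly counterpart. Every culture had 3 treatments over 6 days and was at passage 8 to 10. The knockdowns named Vir, CG7358 and Ime4_dMettl14 are used further on to show where the Fl2d libraries differ from them, and levels in the Nito knockdown (nito) are given beside some of these results. Each has 3 libraries, 10 µg of double-stranded RNA and the same schedule, and CG7358 is annotated as Flacc. Polyadenylated RNA was sequenced and deposited as read counts per gene.

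N6-methyladenosine (m6A) is a methyl mark placed on messenger RNA in the nucleus by a writer complex. Mettl3 and Mettl14 form the methyltransferase pair, and Fl(2)d, the fly counterpart of WTAP, holds that pair together with Virilizer, Spenito (nito), Flacc and Hakai. Ythdc1 reads the mark in the nucleus and Ythdf in the cytoplasm, and Fl(2)d is also known from flies as a factor in the splicing of Sxl and tra, genes of sex determination. Counts per gene do not resolve splice forms, so a change in splicing alone is not visible in the values given here.

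Total counts were 15801372 to 16764705 in the Fl2d libraries and 16043011 to 17259281 in the Ctr libraries, and 8146 of 17559 genes passed the filter on low counts. Levels are in CPM, the usual unit of counts scaled to a common library size, here after TMM scaling, and a gene is called where edgeR's quasi-likelihood test gave an adjusted p under 0.05. Mitochondrial transcripts took 2.01%, 3.34% and 2.85% of counts in Fl2d replicates 1, 2 and 3 and 2.23%, 3.62% and 3.80% in Ctr replicates 1, 2 and 3. Whether the 3 libraries of a group stem from separate cultures is not in the labels. The spread behind each p-value is therefore that of these libraries, and it may be technical. A lower level in such bulk RNA cannot be told apart from fewer cells that carry the transcript. No separate second double-stranded RNA against fl(2)d is named in the labels, and nothing restored the gene. Loss of Fl(2)d and any action of the RNA used on further transcripts therefore cannot be told apart.

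The target itself was lowered about equally in the 3 libraries. The fl(2)d transcript (FBgn0000662, BDGP6, chromosome 2R, 13819624 to 13824553, minus strand, 4 introns) stood at 29.4, 31.9 and 27.2 CPM in the Fl2d libraries, against 177, 179.9 and 171 CPM in the Ctr libraries. No Fl2d library came near a Ctr library, and the means were 29.5 ± 2.33 CPM in Fl2d and 176 ± 4.59 CPM in Ctr (SD, n = 3 each), which leaves 16.8% of the control level. By edgeR's quasi-likelihood test the log2 fold change was −2.58 ± 0.04 (SE, adjusted p = 2.11e-30), and it was the lowest of all genes tested.

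The transcripts of the other writer and reader genes stayed far closer to the control level. Mettl3 was at 38.6, 34.4 and 36.8 CPM in Fl2d and at 31.7, 32.6 and 32.2 CPM in Ctr, so the groups did not overlap, and it rose by a log2 fold change of 0.19 ± 0.06 (edgeR adjusted p = 0.0115). That call was lost without Fl2d replicate 1 and without Ctr replicate 1. Flacc spread widely among the knockdown libraries, with 29, 35.9 and 42.1 CPM in Fl2d against 43.8, 42.3 and 39.4 CPM in Ctr, and was not called (−0.23 ± 0.12). Without Fl2d replicate 3, its highest Fl2d library, Flacc was called lower. Ythdc1, at −0.13 ± 0.05, was called (edgeR adjusted p = 0.0466) but the call held in 1 of the 6 fits that left out a library, the one without Fl2d replicate 3, where the library nearest to control was absent. The values of vir (−0.05), nito (−0.02), Mettl14 (0.07), Hakai (−0.05) and Ythdf (−0.08) did not pass the test.

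**Figure D1:**
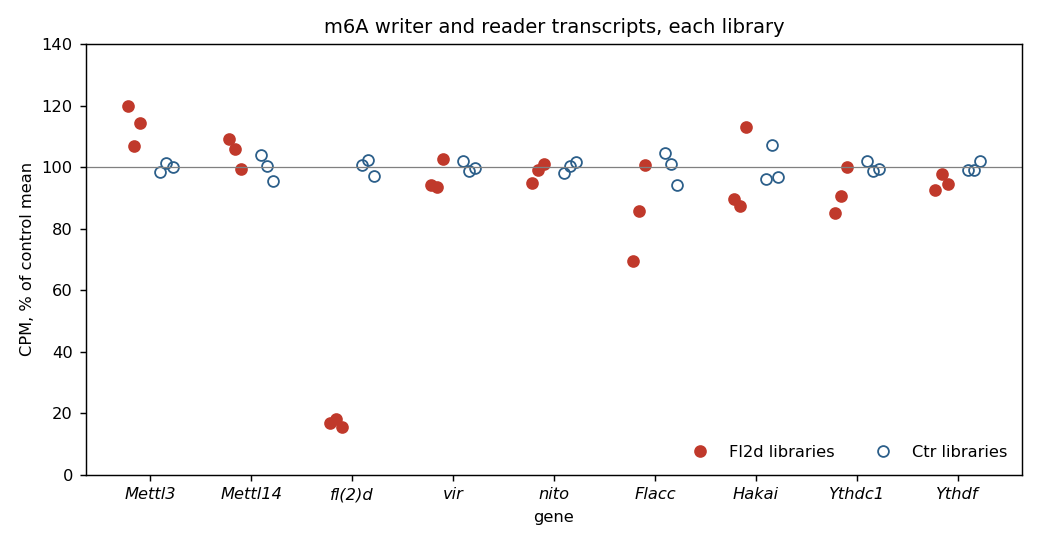
Level of each m6A writer and reader transcript in every library, in CPM as a percent of the Ctr mean (y axis), with Fl2d libraries as filled and Ctr libraries as open circles, left to right replicates 1, 2 and 3. Only fl(2)d, at 16.8% of the control mean, leaves the band held by the other genes.

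Many transcripts changed, most of them by little. Of 8146 genes tested 2610 were called (32.0%), with 1306 higher in Fl2d (16%) and 1304 lower (16%). At a mean log2 CPM over 7 50.3% were called, 33.5% higher and 16.9% lower, against 10.5% called at up to 1. The lists below are set against all genes tested, not against genes of like level or length. The median size of a called change was 0.21 on the log2 scale, a fold of 1.16, and 10th and 90th percentiles lay at 0.11 and 0.66. Over 1.5-fold there were 328 called genes (4.03%), 183 higher (2.25%) and 145 lower (1.78%), and over 2-fold 116 (1.42%). Many of those over 1.5-fold had low counts. At a mean log2 CPM up to 1 they were 79 higher and 29 lower, and at 1 to 3 45 higher and 42 lower. The libraries of the 2 groups did not overlap in 3421 genes (42%), so a lack of overlap in a single gene named below was common. In fits that left out each of the 6 libraries in turn, 77.8% to 84.2% of the 2610 genes were called again, 1568 genes (60.1%) were called in all 6 fits, and 0 were called in the opposite direction.

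**Figure D2:**
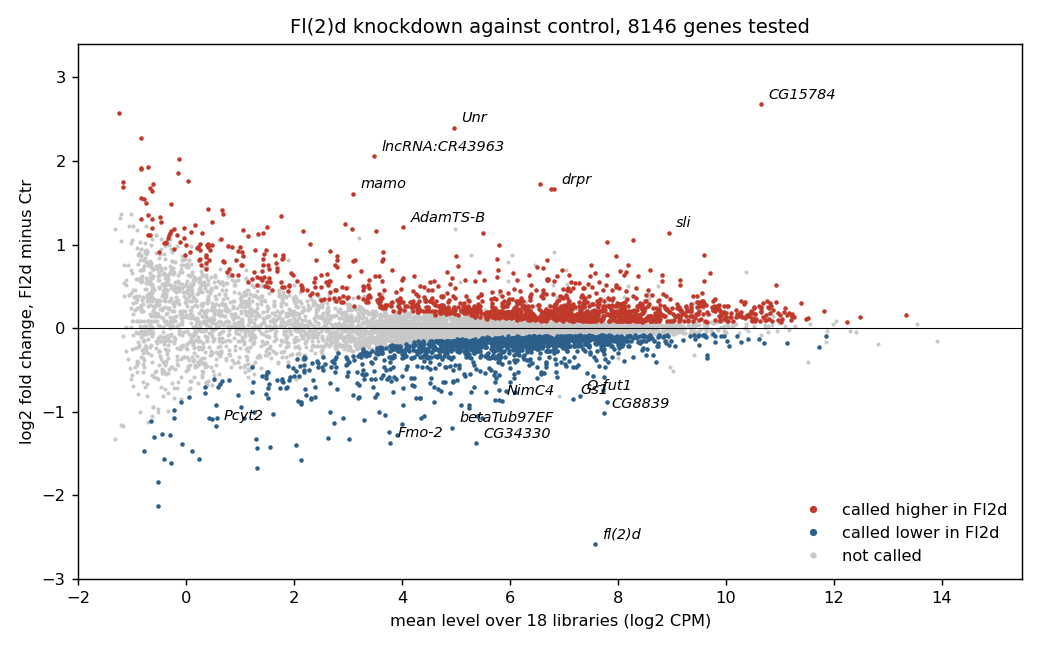
Log2 fold change of Fl2d minus Ctr (y axis) against the mean level over 18 libraries in log2 CPM (x axis) for the 8146 genes tested, with 1306 genes called higher in red, 1304 called lower in blue and the rest in grey. Named points are the target, the genes with large changes and genes described in the text; fl(2)d lies lowest at −2.58 and CG15784 highest at 2.68 among the genes labelled.

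The transcript with the highest increase among well measured genes was CG15784 (FBgn0029766, chromosome X, 5429571 to 5432526), a gene without introns and without a name. It had 1624, 1721 and 1589 CPM in Fl2d libraries and 271, 255 and 246 CPM in Ctr libraries, a log2 fold change of 2.68 ± 0.09 (edgeR adjusted p = 9.58e-11). The lowest Fl2d library was far above the highest Ctr library, though a lack of overlap was a condition for naming the highest genes. Next among annotated genes that did not rest on a single library came lncRNA:CR43963, with 15.2, 18.5 and 14.3 CPM in Fl2d and 2.98, 3.60 and 4.98 CPM in Ctr (2.06 ± 0.17). This noncoding gene lies on the same strand inside Smr, which encodes a nuclear receptor corepressor, and Smr had 251, 349 and 291 CPM in Fl2d against 123, 154 and 161 CPM in Ctr (1.03 ± 0.22). How reads in the shared stretch were counted is not given in the sources used here, so these 2 values may share reads.

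Draper, the engulfment receptor by which fly blood cells and glia take up dying cells, is encoded by drpr (chromosome 3L, 1715595 to 1731107). Its transcript was at 192, 187 and 198 CPM in Fl2d and at 63.7, 60 and 59 CPM in Ctr, 316% of the control mean, with a log2 fold change of 1.66 ± 0.04 (edgeR adjusted p = 9.53e-24). Each Fl2d library held over 180 CPM while no Ctr library reached 70, and a lack of overlap was a condition for naming the gene among the highest. The metalloprotease gene AdamTS-B had 24.2, 26 and 28.3 CPM in Fl2d and 9.68, 12 and 12.4 CPM in Ctr (1.21 ± 0.08). Kal1, the fly counterpart of the matrix protein anosmin, had 34.6, 38.3 and 35.5 CPM in Fl2d and 21.1, 19.8 and 18.9 CPM in Ctr (0.86 ± 0.06). Both genes overlap a gene on the other strand, CG33080 and Slimp in that order, and whether counting used the strand is not given.

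The remaining strong increases covered varied functions. For mamo, a zinc finger transcription factor gene, the levels were 10.8, 21.2 and 11.9 CPM in Fl2d and 3.95, 5.14 and 5.23 CPM in Ctr (1.61 ± 0.31, edgeR adjusted p = 0.00164). Replicate 2 was highest here, and in Vir the gene varied as well (8.89, 4.5 and 5.71 CPM). The call against Ctr held in all 6 fits that left out a library. Its groups did not overlap, which was a condition for naming it among the highest genes. CG43188 had 85.4, 105 and 76.7 CPM in Fl2d and 48.3, 46.4 and 39.8 CPM in Ctr (0.99 ± 0.13). Among genes over 1.5-fold with the smallest p were skd, a subunit of the Mediator kinase module (0.66 ± 0.04), Prosap, a scaffold protein of synapses (0.66 ± 0.04), Lasp, an actin binding protein (0.63 ± 0.04), AOX1, an aldehyde oxidase (0.59 ± 0.04), blow, known from myoblast fusion (0.67 ± 0.03), and Cipc (0.68 ± 0.04). The gene blow overlaps Vps13 on the other strand. In each of these 6 the Fl2d libraries lay above all Ctr libraries, which their choice by smallest p makes likely. For blow the levels were 333, 344 and 339.7 CPM in Fl2d against 219.9, 210.2 and 211 CPM in Ctr.

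**Figure D3:**
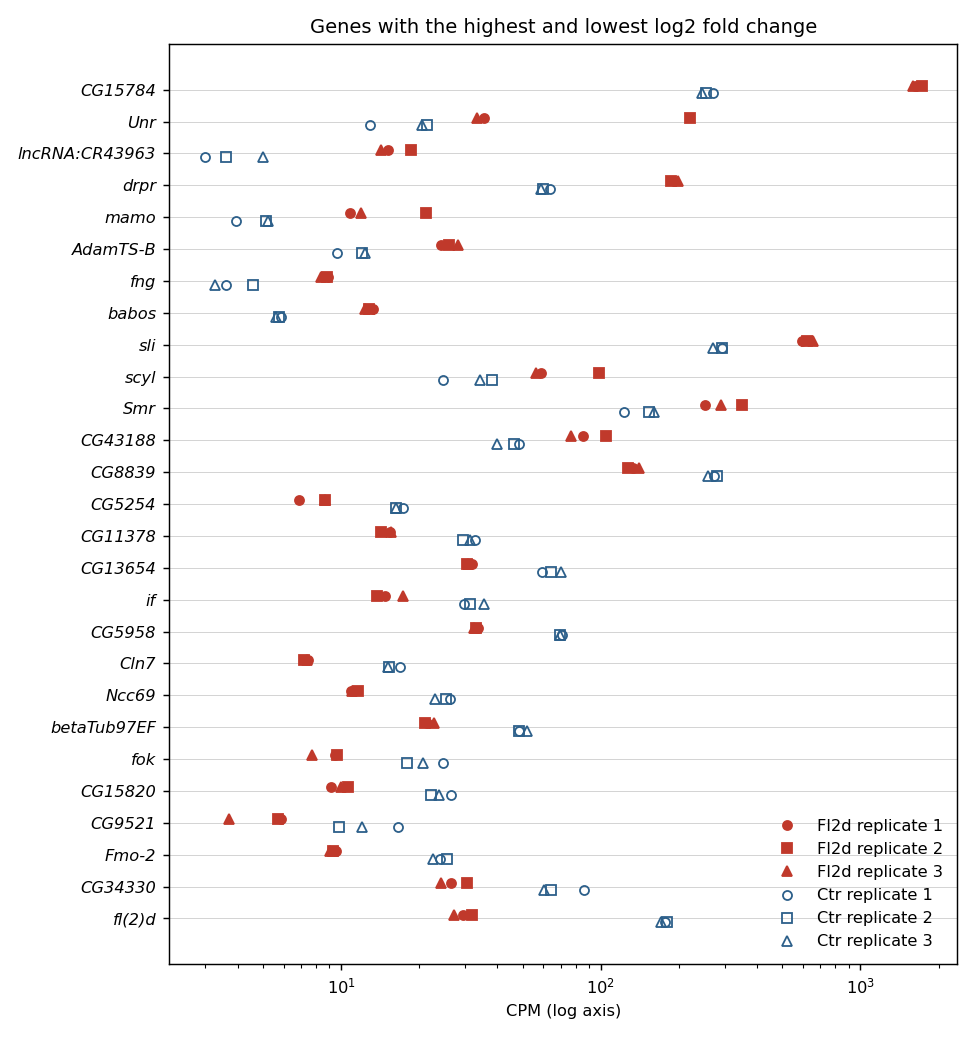
CPM on a log axis (x) in each library for annotated genes with the highest (top) and lowest (bottom) log2 fold change among called genes whose groups did not overlap and whose mean log2 CPM was 3 or more, with Fl2d libraries filled and Ctr libraries open. Most genes form tight groups of 3, while in Unr the second Fl2d library at 221 CPM stands away from 35.6 and 33.3 CPM.

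Among the lowest transcripts were enzymes, transporters and a tubulin. Fmo-2, a flavin monooxygenase gene, had 9.56, 9.28 and 9.07 CPM in Fl2d and 24, 25.5 and 22.6 CPM in Ctr (−1.37 ± 0.07, edgeR adjusted p = 2.71e-15). CG34330 had 26.5, 30.4 and 24.2 CPM in Fl2d and 85.8, 64.2 and 60.2 CPM in Ctr (−1.38 ± 0.24), where the first Ctr library was highest. The groups stayed apart in both genes, which was a condition for naming the lowest genes. The beta tubulin gene betaTub97EF had 21.5, 21.1 and 22.8 CPM in Fl2d and 48.6, 48.3 and 52.1 CPM in Ctr (−1.19 ± 0.06), and Ncc69, a sodium potassium chloride cotransporter gene, had 10.9, 11.6 and 11 CPM in Fl2d and 26.2, 25.4 and 23 CPM in Ctr (−1.15 ± 0.08). Cln7, for a lysosomal membrane protein, fell by 1.10 on the log2 scale with a SE of 0.08, and overlaps lark on the other strand. Of the 7 tubulin genes tested 1 other was called, alphaTub84D, which rose (0.26 ± 0.03). The 28.6% called in that list is below the 32.0% of all genes.

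Nearly all genes for proteins of the cytosolic ribosome were a little higher in Fl2d. Of 76 tested 66 were called higher and 0 lower by edgeR (65 and 0 by DESeq2, 69 and 0 at an unadjusted p under 0.05), against 16% in each direction and 32.0% in all over the genes tested, with a list median of 0.17 and values from 0.04 to 0.38, where the median of all genes tested was 0. Summed over the list, the level was 116413, 122101 and 121411 CPM in Fl2d and 104687, 106725 and 109452 CPM in Ctr, so that every Fl2d library lay above every Ctr library. RpS6, of the small subunit, had 1426, 1478 and 1526 CPM in Fl2d and 1166, 1196 and 1211 CPM in Ctr (0.31 ± 0.04). Without 1 library the count of higher genes was 44 without Ctr replicate 1, 46 without Fl2d replicate 2 and up to 65 without another library. RpL22 had the highest value but spread too widely to be called (0.38 ± 0.17).

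Most genes for the factors that work with the ribosome did not pass the test. Of 32 translation factor genes 9 rose and 2 fell, 1 without Fl2d replicate 1, Fl2d replicate 2, Ctr replicate 2 or Ctr replicate 3 (median 0.06, 34.4% called), with the ribosome assembly factor gene eIF6 (0.32 ± 0.04), the elongation factor gene eEF2 (0.16 ± 0.03) and the release factor genes eRF3 (0.16 ± 0.03) and eRF1 (0.14 ± 0.03) among the higher ones. The lowest was Thor, the fly 4E-BP, which represses translation (−0.35 ± 0.08). Thor had 21.4, 21.3 and 19.5 CPM in Fl2d and 29.3, 24.1 and 25.9 CPM in Ctr. Of 19 aminoacyl-tRNA synthetase genes 4 rose and 0 fell by edgeR and by DESeq2 (median 0.04), and the 21.1% called is below the 32.0% of all genes. They were ThrRS, ValRS, AspRS and GlyRS, at 0.13 to 0.15.

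In the list for the unfolded protein response and the integrated stress response, 11 of 20 members rose and 2 fell (median 0.15, 65% called against 32.0% of all genes). The chaperone genes of the endoplasmic reticulum were among them. Calr, for calreticulin, had 2188, 2139.6 and 2123 CPM in Fl2d and 1779, 1737 and 1698 CPM in Ctr (0.31 ± 0.03, edgeR adjusted p = 3.26e-10). ERp60, a disulfide isomerase, had 2052, 2013 and 2048 CPM in Fl2d and 1709, 1705 and 1705 CPM in Ctr (0.26 ± 0.03). Gp93, the Hsp90 of this compartment (0.25 ± 0.03), Hsc70-3, the fly BiP (0.19 ± 0.03), and Xrp1, a stress transcription factor gene (0.26 ± 0.03), rose as well. The 2 members that fell were Thor and Xbp1, a transcription factor of the unfolded protein response (−0.10), whose activation is by splicing and so is not measured by its count.

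Subunits of the proteasome were called higher in 16 of 30 and lower in 0 (median 0.09, 53.3% called, all genes 32.0%). DESeq2 called 12 higher and 0 lower. Of genes at a mean log2 CPM over 7, 50.3% were called, and Prosalpha3 (7.65) and Rpn2 (9.22) lie there. Any part of level in this count was not tested. Prosalpha3 of the core particle had 198, 201 and 207 CPM in Fl2d and 166, 179.9 and 177 CPM in Ctr (0.21 ± 0.04), and Rpn2 of the regulatory particle had 604, 574 and 606 CPM in Fl2d and 528, 519 and 524 CPM in Ctr (0.18 ± 0.03). The count rested on single libraries: it was 7 without Fl2d replicate 1, 5 without Ctr replicate 1 and 10 without Ctr replicate 2. Of 20 heat shock and chaperone genes 5 rose and 0 fell by edgeR, and likewise by DESeq2 (25% called, below the share of all genes). The count was 3 without Fl2d replicate 1, Ctr replicate 1 or Ctr replicate 2. They included the stress induced noncoding RNA lncRNA:Hsromega (0.41 ± 0.06) and Hsp110 (0.22 ± 0.03).

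**Figure D4:**
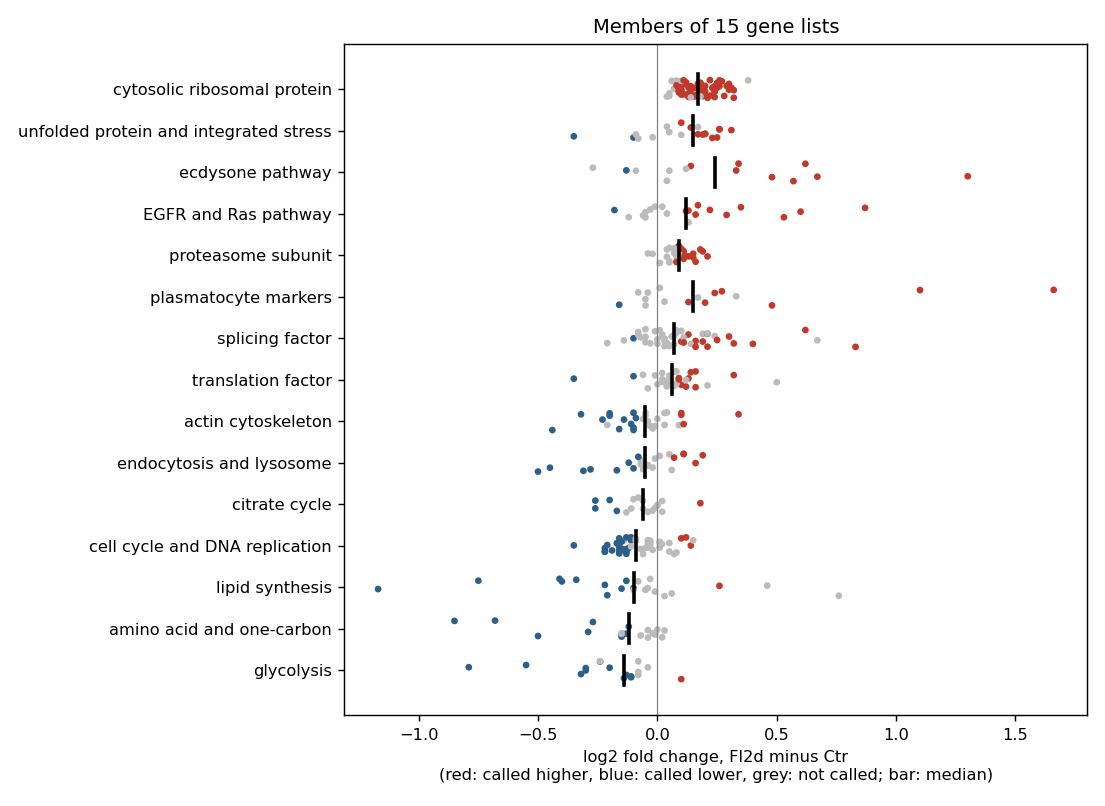
Log2 fold change of Fl2d minus Ctr (x axis) of each tested member of 15 gene lists (rows), red where called higher, blue where called lower and grey where not called, with a black bar at the list median. The ribosomal protein genes lie to the right of 0 with a median of 0.17, and the glycolysis genes to the left with a median of −0.14.

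Glycolysis genes were mostly lower, where 16% of all genes were lower and 32.0% called. Of 17 glycolysis genes 11 fell and 1 rose, Hex-A, a call lost without Fl2d replicate 1, Ctr replicate 2 or Ctr replicate 3 (median −0.14, 70.6% called). Without 1 library 8 to 12 fell, and the summed level was 2802, 2832 and 2966 CPM in Fl2d against 3125, 3106 and 3150.2 CPM in Ctr, without overlap. Pfk, which commits sugar to glycolysis, had 61.1, 61.6 and 57.8 CPM in Fl2d and 81.1, 70.9 and 70.5 CPM in Ctr (−0.30 ± 0.05). The lowest member, fbp, encodes fructose bisphosphatase, which runs the opposite way in sugar synthesis, and had 8.21, 8.43 and 8.76 CPM in Fl2d and 14.3, 15.7 and 14 CPM in Ctr (−0.79 ± 0.09). Ldh, picked here for its size, makes lactate and was at −0.55 ± 0.17 (edgeR adjusted p = 0.0286). Its call was lost without Fl2d replicate 1, Fl2d replicate 3 or Ctr replicate 1.

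Of 18 genes of amino acid and one-carbon metabolism 0 rose and 8 fell by edgeR and DESeq2 (median −0.12, 44.4% called, all genes 32.0%). The enzymes of glutamine and glutamate given next were among the 8. Gs1, the mitochondrial glutamine synthetase, had 115, 116 and 117 CPM in Fl2d and 202, 219.5 and 208 CPM in Ctr (−0.85 ± 0.04, edgeR adjusted p = 8.09e-18). Gs2, the cytosolic enzyme of the same reaction, had 7.17, 7.92 and 7.24 CPM in Fl2d and 9.97, 9.94 and 11.7 CPM in Ctr (−0.50 ± 0.10). Gdh, glutamate dehydrogenase, had 12.5, 13.4 and 13.4 CPM in Fl2d and 21.5, 22.1 and 19.4 CPM in Ctr (−0.68 ± 0.08). In these 3 genes no Fl2d library overlapped a Ctr library. Got1, an aspartate transaminase (−0.27 ± 0.04), and P5cr of proline synthesis (−0.29 ± 0.06) also fell, and P5cr was picked for its size.

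In lipid synthesis 10 of 21 genes fell and 1 rose (median −0.10, 52.4% called, all genes 32.0%). The count of lower genes stayed at 10 or 11 in the fits that left out each library. AcCoAS, which makes acetyl-CoA from acetate, had 52.9, 47.7 and 51.3 CPM in Fl2d and 83.4, 85.1 and 86.4 CPM in Ctr (−0.75 ± 0.04). Inos, for the enzyme that makes inositol phosphate, had 424, 409 and 431 CPM in Fl2d and 570, 549.8 and 554 CPM in Ctr (−0.41 ± 0.03). Lpin, a phosphatidate phosphatase, was at −0.34 ± 0.04 and mdy, which completes triglyceride synthesis and was picked for its size, at −0.40 ± 0.07. The single member that rose was SCAP (0.26 ± 0.03), the escort of the lipid regulator SREBP. Pcyt2, also picked for its size, was at 0.735, 0.714 and 1.28 CPM in Fl2d and 2.18, 1.89 and 2.15 CPM in Ctr, and its start overlaps the end of Pcyt1 on the same strand, so its value is uncertain.

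The mitochondrial lists had called shares below the 32.0% of all genes, 27.8% for the citrate cycle and 20.6% for the respiratory chain. Of 18 citrate cycle genes 1 rose, Ogdh (0.18 ± 0.03), and 4 fell, among them Men, malic enzyme (−0.26 ± 0.04), and the succinyl-CoA ligase subunit genes ScsbetaG (−0.26 ± 0.04) and ScsbetaA (−0.20 ± 0.03). Without Fl2d replicate 3 the number of lower citrate cycle genes was 7. Of 34 nuclear and mitochondrial genes of the respiratory chain 2 rose and 5 fell with a median of 0, and the 5 became 1 without Ctr replicate 3 and 3 without Ctr replicate 2 or any one Fl2d library, and the 2 became 0 without Ctr replicate 1, 1 without Fl2d replicate 3. Of 24 solute transporter genes 9 were lower and 4 higher (54.2% called), where the copper importer gene Ctr1A (−0.36 ± 0.04) was among the lower and the trehalose transporter genes Tret1-1 (0.37 ± 0.05) and Tret1-2 (0.60 ± 0.07) were the highest.

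Cell cycle and replication genes were lower by small amounts in 22 of 50 and higher in 3 (median −0.09, 50% called against 32.0% of all genes). The summed level was 7040.1, 7051 and 7113 CPM in Fl2d and 7484, 7423 and 7334 CPM in Ctr. The mitotic kinase gene polo had 321, 342 and 329 CPM in Fl2d and 379, 365 and 365 CPM in Ctr (−0.16 ± 0.03), and the mitotic motor genes ncd (−0.22 ± 0.03) and Klp61F (−0.19 ± 0.03) fell alike. Of the replication genes Cdc45, part of the replicative helicase, was at −0.22 ± 0.04. Members picked after their values were seen were Prim1, a primase subunit (−0.35 ± 0.08), Mcm2 of the helicase ring (−0.15 ± 0.04) and CycE, which drives entry into S phase (−0.21 ± 0.05). The 3 that rose were CycD (0.14 ± 0.04) and the transcription factor pair E2f1 (0.12 ± 0.03) and Dp (0.10). The count of lower genes was 15 without Fl2d replicate 2 and 17 to 20 without another library.

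Structural genes of the actin cytoskeleton were lower more often than higher, 12 against 4 of 29 (median −0.05, 55.2% called, all genes 32.0%). Act5C, the main cytoplasmic actin gene, had 3244, 3267 and 3311 CPM in Fl2d and 3855, 3834 and 3802 CPM in Ctr (−0.23 ± 0.03). Actn, the crosslinker alpha actinin, had 131, 127 and 139 CPM in Fl2d and 174, 184 and 180.3 CPM in Ctr (−0.44 ± 0.03), and Gel, the severing protein gelsolin, was at −0.32 ± 0.03. The groups did not overlap in these 3 genes. The highest member, Mbs, a subunit of myosin phosphatase, had 241, 267 and 259 CPM in Fl2d and 204, 207 and 196 CPM in Ctr (0.34 ± 0.04).

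Of 24 endocytosis and lysosome genes 5 rose and 8 fell (median −0.05, 54.2% called, all genes 32.0%). LManII, a lysosomal mannosidase gene, had 38.1, 40.5 and 40.8 CPM in Fl2d and 54.9, 57.9 and 56.1 CPM in Ctr (−0.50 ± 0.05), and VhaSFD, a subunit of the proton pump that acidifies the lysosome, had 162, 161 and 166 CPM in Fl2d and 223, 222 and 225 CPM in Ctr (−0.45 ± 0.03). A pair of members of the tethering complex for late endosomes, dor (−0.28 ± 0.04) and car (−0.31 ± 0.05, picked for its size), fell too, while the protease gene cathD rose (0.19 ± 0.03). The number of higher genes was 3 without Fl2d replicate 2, Ctr replicate 1 or Ctr replicate 2. In autophagy 4 of 22 rose and 5 fell (40.9% called): the conjugation genes Atg5 (−0.23 ± 0.05), Atg7 (−0.23 ± 0.05) and Atg16 (−0.17 ± 0.04) were lower, and ref(2)P, the fly p62 and a cargo receptor, was higher (0.19 ± 0.03). The 4 higher ones were 2 without Fl2d replicate 1 or Fl2d replicate 2, and 1 without Ctr replicate 1.

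Ecdysone is the steroid hormone of insects, to which S2 type cells respond. Of 14 tested genes of its pathway 8 rose and 1 fell, with a median of 0.24 and 64.3% called against 32.0% of all genes. The importer gene Oatp74D had 209.7, 221 and 213 CPM in Fl2d and 135, 146 and 138 CPM in Ctr (0.62 ± 0.04, edgeR adjusted p = 6.68e-15). EcR, the hormone receptor gene, had 75.4, 83.4 and 81 CPM in Fl2d and 65.2, 63.9 and 61.1 CPM in Ctr (0.33 ± 0.05). The coactivator gene tai had 149, 177 and 177 CPM in Fl2d and 119, 121 and 122 CPM in Ctr (0.48 ± 0.06). All Fl2d libraries were above all Ctr libraries in these 3 genes, while usp, the partner of the receptor, was at 0.04.

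Among the downstream nuclear receptor genes, Hr39 was at 0.34 ± 0.05. Of those picked for their size, Eip75B had 74.4, 83.8 and 85.9 CPM in Fl2d and 50.7, 56.9 and 57.2 CPM in Ctr (0.57 ± 0.09), and ftz-f1 had 29.1, 39.2 and 35.2 CPM in Fl2d and 18, 23.5 and 23.4 CPM in Ctr (0.67 ± 0.18). Hr3 had the highest value (1.30 ± 0.39) at 0.735, 0.584 and 0.730 CPM in Fl2d and 0.229, 0.343 and 0.246 CPM in Ctr, which is close to the lower limit of detection, and other genes lie within it on the same strand. Without Ctr replicate 1 Hr3 and ftz-f1 were not called and the list had 5 higher genes in place of 8. Without Fl2d replicate 2 ftz-f1 was not called either. EcR, tai, Eip75B, ftz-f1 and Hr3 have over 8 kb of annotated exons, and 34.0% of tested genes that long were higher. Oatp74D and Hr39 are shorter, at 4146 and 4984 bases. Any part of length in these values was not tested.

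In the EGFR and Ras pathway 10 of 20 tested genes rose and 1 fell (median 0.12, 55% called, all genes 32.0%). Both activators and inhibitors were among them. The inhibitor gene kek1 had 186, 202 and 199.5 CPM in Fl2d and 137, 133 and 137 CPM in Ctr (0.53 ± 0.04). The protease gene rho, which releases EGFR ligands, was at 0.35 ± 0.08, the ligand gene spi at 0.16 ± 0.03 and the target transcription factor gene pnt at 0.17 ± 0.03. The inhibitor sty and the ligand gene vn, picked for their size, were at 0.87 ± 0.29 and 0.60 ± 0.21, and each call was lost in 4 of 6 fits that left out a library. Raf, the kinase of the cascade, was the member that fell (−0.18). The count of higher genes was 6 without Fl2d replicate 3 and 5 without Ctr replicate 3.

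Among other signalling lists, the JAK/STAT list had 5 of 10 genes higher and 1 lower (60% called against 32.0% of all genes). The ligand gene upd2 had 6.56, 5.32 and 6.94 CPM in Fl2d and 4.07, 4.29 and 4.49 CPM in Ctr (0.56 ± 0.14), the inhibitor Socs36E was at 0.36 ± 0.03, and the kinase gene hop fell (−0.17 ± 0.04), a call lost without Fl2d replicate 2. The 5 were 3 without Fl2d replicate 2, Fl2d replicate 3 or Ctr replicate 1. Of 15 JNK genes 6 were higher and 1 lower (46.7% called), with the tumour necrosis factor receptor gene wgn at 89.9, 99.9 and 98.6 CPM in Fl2d and 67.2, 69.6 and 65.5 CPM in Ctr (0.51 ± 0.04) and the kinase gene wnd lower (−0.47 ± 0.06). The lower count was 2 without Fl2d replicate 2 and 3 without Fl2d replicate 3 or Ctr replicate 1. In the Hippo pathway 5 of 12 were higher and 2 lower, 1 without Fl2d replicate 1 or Ctr replicate 1 (58.3% called), and the upstream genes ex (0.26 ± 0.04) and kibra (0.24 ± 0.04) and the kinase gene wts (0.23 ± 0.04) were among the higher ones. Of 19 Wingless genes 5 were higher and 5 lower (52.6% called). There Notum, a secreted inhibitor, rose (0.42 ± 0.06), and arm, the fly beta catenin, fell (−0.17 ± 0.03).

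In the Notch list 6 of 23 rose and 4 fell (43.5% called, all genes 32.0%). O-fut1 and fng, enzymes that add sugars to the receptor, moved in opposite directions. O-fut1, which adds fucose to Notch, had 102, 95.4 and 96.3 CPM in Fl2d and 176, 166 and 173 CPM in Ctr (−0.81 ± 0.04, edgeR adjusted p = 1.37e-17). The gene fng, whose product extends that fucose, had 8.89, 8.82 and 8.40 CPM in Fl2d and 3.61, 4.57 and 3.26 CPM in Ctr (1.18 ± 0.12). Neither gene showed overlap between groups, and fng overlaps CG10589 on the other strand. The receptor gene N was at −0.18 ± 0.04, the coactivator mam, picked for its size, at −0.53 ± 0.09, and the corepressor gro at 0.23 ± 0.04. In the insulin and TOR list 5 of 20 were higher and 5 lower (50% called), the higher ones being 2 without Fl2d replicate 2 and 3 without Ctr replicate 2, and in the Toll and Imd list 4 of 22 were higher and 3 lower (31.8% called, close to all genes).

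Markers of plasmatocytes, the phagocytic blood cells that S2 type lines resemble, were detected, and 0 of 17 were without a count. Their summed level was 5355, 5596 and 5665 CPM in Fl2d and 4818, 5054 and 4811 CPM in Ctr. Of 16 tested 7 rose and 1 fell (median 0.15, 50% called, all genes 32.0%). Beside drpr (1.66), He, a blood cell surface protein gene, had 2.15, 2.53 and 2.98 CPM in Fl2d and 1.26, 0.971 and 1.35 CPM in Ctr (1.10 ± 0.22), and overlaps NimB5 on the other strand. The matrix protein gene Ppn had 37.1, 43.1 and 34.2 CPM in Fl2d and 27.8, 27.8 and 26.1 CPM in Ctr (0.48 ± 0.07). The lineage factor gene srp was the member that fell (−0.16 ± 0.04), and Hml, at 0.24 ± 0.09, kept its call in 2 of 6 fits that left out a library.

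Receptors and adaptors of phagocytosis did not move as a block, with 3 of 12 higher and 3 lower (median −0.02, 50% called, all genes 32.0%). NimC4, a receptor for dying cells that acts with Draper, had 45.4, 45.5 and 46 CPM in Fl2d and 78.9, 84.5 and 85.3 CPM in Ctr (−0.86 ± 0.04, edgeR adjusted p = 2.56e-16), opposite to drpr. The adaptor gene mbc had 393, 401 and 373 CPM in Fl2d and 321, 323 and 293 CPM in Ctr (0.32 ± 0.04), and the scavenger receptor gene pes was at 0.16 ± 0.03. PGRP-LC, the receptor for bacterial peptidoglycan picked for its size, was near 1 CPM and at −0.78 ± 0.25, and the number of lower genes was 1 without Fl2d replicate 1 or Ctr replicate 3.

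Markers of other cell types were present at lower summed levels, and each marker had counts in at least 1 of the 6 libraries. Summed CPM of lamellocyte markers was 2495 to 2644 in Fl2d and 2326 to 2411 in Ctr, of crystal cell markers 18.3 to 21.8 in Fl2d and 16.3 to 16.7 in Ctr, and of neuron markers 38.1 to 47.6 in Fl2d and 33.2 to 37.1 in Ctr. Muscle markers summed to 107 to 111 CPM in Fl2d and 98.1 to 109 CPM in Ctr, fat body markers to 3.35 to 4.61 CPM in Fl2d and 2.80 to 3.72 CPM in Ctr, and germline markers to 778 to 806 CPM in Fl2d and 758 to 856 CPM in Ctr. The plasmatocyte, lamellocyte, crystal cell and neuron sums were thus higher in every Fl2d library, as was that of epithelial markers, at 352 to 369 CPM in Fl2d and 343 to 347 CPM in Ctr. Of 6 tested neuron markers edgeR and DESeq2 called 0, with 3 higher at an unadjusted p under 0.05, and edgeR called 2 without Fl2d replicate 3. Their part in the results above was not tested.

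Genes of the extracellular matrix and integrins moved both ways, with 8 of 25 higher and 5 lower (median −0.03, 52% called, all genes 32.0%). The integrin alpha chain gene if had 14.8, 13.8 and 17.3 CPM in Fl2d and 29.8, 31.4 and 35.5 CPM in Ctr (−1.07 ± 0.08), while mys, the beta chain with which it pairs, rose slightly (0.26 ± 0.03). Tig, an integrin ligand of the matrix, had 203, 192 and 214 CPM in Fl2d and 310.3, 312 and 288 CPM in Ctr (−0.58 ± 0.04), and the metalloprotease gene Mmp1, picked for its size, was at 0.50 ± 0.08. Of 19 axon guidance genes 6 rose and 2 fell (median 0.15, 42.1% called). The ligand gene sli had 596, 625 and 659 CPM in Fl2d and 292, 292 and 271 CPM in Ctr (1.14 ± 0.05), and has over 8 kb of annotated exons. The summed list was 5047, 5211 and 5245 CPM in Fl2d and 4139, 4097 and 3953 CPM in Ctr.

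Because Fl(2)d is tied to splicing, genes of RNA processing were read as lists. Of 49 splicing factor genes 14 rose and 1 fell (median 0.07), and the 30.6% called is close to the 32.0% of all genes. Without 1 library 11 or 12 were higher. The RNA binding protein gene mub had 124, 129 and 122 CPM in Fl2d and 101, 98.4 and 102 CPM in Ctr (0.32 ± 0.04), and the SR protein gene B52 had 429, 449 and 467 CPM in Fl2d and 388, 406 and 407 CPM in Ctr (0.16 ± 0.04). Of those picked for their size heph, the fly polypyrimidine tract binding protein, had 142, 181 and 143 CPM in Fl2d and 98.4, 99.4 and 106 CPM in Ctr (0.62 ± 0.13), and ps, the fly NOVA, was at 0.40 ± 0.08. Rbfox1 was at 0.83 ± 0.24, a call lost without Fl2d replicate 2 or Ctr replicate 1. The genes mub, heph, ps and Rbfox1 have over 8 kb of annotated exons, and 34.0% of tested genes that long were higher. Any part of length in these values was not tested. The lower count was 5 without Fl2d replicate 3 in place of 1.

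Of 7 exon junction complex genes edgeR called 0, against 3 at an unadjusted p under 0.05 and 0 by DESeq2, and leaving out Ctr replicate 1, Fl2d replicate 3 or Ctr replicate 3 gave 1. For RNA decay and export, 7 of 30 genes were higher and 5 lower (median −0.01, 40% called, all genes 32.0%). The nonsense mediated decay genes Smg5 (0.17 ± 0.04) and Smg6 (0.17 ± 0.04) were among the higher and the exonuclease gene pcm (−0.20 ± 0.04) among the lower. These counts were unsteady: the higher one was 2 without Fl2d replicate 1 or Ctr replicate 2, 3 without Ctr replicate 3 and 4 without Fl2d replicate 3 or Ctr replicate 1, and the lower one was 3 without Fl2d replicate 2. Of 19 small RNA pathway genes 3 were lower and 1 higher (21.1% called), the higher one not without Fl2d replicate 1 or Ctr replicate 1. AGO3, a Piwi family gene, was at 21, 27.9 and 20.7 CPM in Fl2d and 30.9, 28.6 and 28.3 CPM in Ctr (−0.34 ± 0.08), and AGO2, the effector of the RNA interference used for the knockdown, at −0.07 ± 0.03 with a call that held in 2 of 6 fits that left out a library.

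In the sex determination list 2 of 8 tested genes rose and 2 fell (50% called against 32.0% of all genes). The lower count was 1 without Fl2d replicate 1, Fl2d replicate 3 or Ctr replicate 2. Sxl, the switch gene whose splicing needs Fl(2)d in flies, was at −0.07 and not called. Its target tra had 23.7, 28.1 and 24.6 CPM in Fl2d and 22.6, 20.9 and 19.1 CPM in Ctr (0.28 ± 0.07, edgeR adjusted p = 0.00201), and fru, a target further down, had 138, 181 and 156 CPM in Fl2d and 115, 119 and 117 CPM in Ctr (0.44 ± 0.09). Each Fl2d library was above each Ctr library in both genes. The annotated exons of fru exceed 8 kb, and 34.0% of tested genes that long were higher. The cofactor genes tra2 (−0.16 ± 0.05) and snf (−0.16 ± 0.05) fell. In dosage compensation JIL-1, a histone kinase gene, rose (0.19 ± 0.04) and Clamp, a factor that guides the complex to the X chromosome, fell (−0.12 ± 0.03). The gene msl-2, which Sxl can repress, was at −0.10 and not called. Whether these cells make working Sxl was not tested, so the tra and msl-2 values do not measure its activity.

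Of 29 chromatin genes 9 rose and 3 fell (median −0.01, 41.4% called, all genes 32.0%). The histone methyltransferase genes trx, with 187, 178 and 180.4 CPM in Fl2d and 143, 127 and 121 CPM in Ctr (0.48 ± 0.05), and gpp, with 243, 245 and 245 CPM in Fl2d and 188, 177 and 167 CPM in Ctr (0.46 ± 0.04), were highest. Both have over 8 kb of annotated exons, a class in which 34.0% of tested genes were higher. In oxidative and xenobiotic stress 3 of 21 genes were higher and 6 lower (42.9% called), and cnc, the fly Nrf2, had 134, 137 and 135 CPM in Fl2d and 107, 102 and 103 CPM in Ctr (0.38 ± 0.04). Of 7 circadian clock genes 3 rose (42.9% called against 32.0% of all genes), vri (0.23 ± 0.04), dco (0.16 ± 0.03) and cwo (0.16 ± 0.04).

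The share of called genes rose with the length of the annotated exons. It was 21.9% for genes up to 1 kb, 27.2% for 1 to 2 kb, 34.2% for 2 to 4 kb, 42.7% for 4 to 8 kb and 44.8% over 8 kb. In the longest class 34.0% of 382 genes were higher and 10.7% lower with a median of 0.144, whereas in the class of 2 to 4 kb 13.7% were higher and 20.4% lower with a median of −0.027. By library, the median difference of 301 well measured genes over 8 kb from the Ctr mean was 0.094, 0.140 and 0.114 in Fl2d replicates 1, 2 and 3 and 0.028, 0.007 and −0.032 in Ctr replicates 1, 2 and 3. In Vir replicates 1, 2 and 3 it was 0.102, −0.044 and 0.034, so this measure also varied between libraries of 1 group. The share called rose with introns, from 22.3% of genes without an intron to 46.7% of those with over 10, and with level, from 10.5% at a log2 CPM up to 1 to 50.3% over 7, and these properties were not separated.

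By chromosome the X held 13.2% higher and 18% lower genes of 1401 tested, where the large autosomal arms 2L, 2R, 3L and 3R held 16.2% to 16.9% higher and 14.8% to 16.5% lower. On the small chromosome 4, with 83 genes tested, 19.3% were called. Noncoding RNA genes were higher in 15.2% and lower in 4.86% of 329 tested, and protein coding genes in 16% and 16.6% of 7556.

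Several libraries stood apart from the others of their group in a few genes. At a mean log2 CPM of 3 or more, Fl2d replicate 2 was over 1 log2 unit above both other Fl2d libraries in 4 genes and below them in 0. Fl2d replicate 1 was apart in 3 genes, Vir replicate 2 in 5 and Ctr replicate 1 in 6. Unr, for an RNA binding protein with a part in dosage compensation, was at 35.6, 221 and 33.3 CPM in Fl2d and at 12.9, 21.5 and 20.4 CPM in Ctr, and its log2 fold change of 2.40 ± 0.69 (edgeR adjusted p = 0.0189) was 0.92 without that library (edgeR adjusted p = 0.0893). Its call was also lost without Ctr replicate 1. Mnt, the Myc antagonist, was at 38.7, 106 and 40.6 CPM in Fl2d and 18.6, 32.1 and 30.2 CPM in Ctr, and the noncoding gene lncRNA:CR45102, which starts just beyond the end of Mnt on the same strand of the X (3701857, against 3701672), was at 8.52, 33.2 and 10.9 CPM in Fl2d and 5.33, 10.1 and 9.10 CPM in Ctr. Neither was called (1.19 ± 0.50 and 1.08 ± 0.57).

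The same genes also varied among the libraries of other groups. Mnt had 32.7, 7.96 and 20.3 CPM in Vir, 16.9, 8.35 and 21.2 CPM in Ime4_dMettl14 and 18.5, 31 and 45.2 CPM in CG7358. The gene scyl, an inhibitor of TOR signalling, followed a like order, with 59.1, 98.1 and 56.4 CPM in Fl2d and 24.7, 38 and 34.4 CPM in Ctr (1.14 ± 0.32). Its call was lost without Fl2d replicate 2 or Ctr replicate 1. Its groups did not overlap, but that was a condition for naming it. In Vir scyl had 46.6, 20.7 and 35.8 CPM. Replicate 2 was likewise highest in Fl2d and lowest in Vir for mamo, Smr, heph, sty and Rbfox1. Smr had 242, 140.1 and 229 CPM in Vir. Mitochondrial transcripts were the other unsteady set. In mt:Cyt-b the first library was low in Fl2d (1091, 2773 and 2321 CPM) and in Ctr (1232, 3282 and 3683 CPM). It was also lowest in Nito, at 1739, 2242 and 3804 CPM, but highest in CG7358, at 4371, 2329 and 4163 CPM. Of 15 mitochondrial genes edgeR and DESeq2 called 0, with 0 at an unadjusted p under 0.05.

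**Figure D5:**
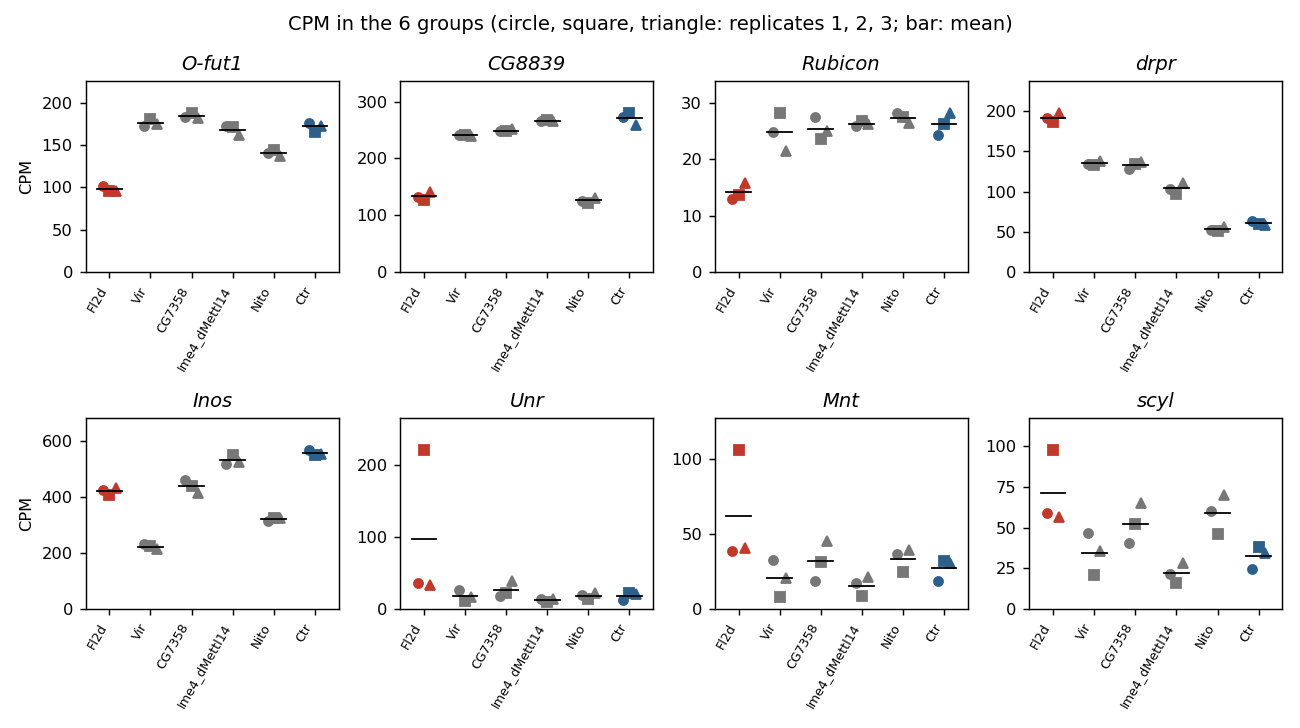
CPM of 8 genes (y axis, from 0) in the 6 groups of the series, with Fl2d in red at the left and Ctr in blue at the right, 3 libraries each and a bar at the mean. O-fut1 and Rubicon are lowest in Fl2d, at 98 and 14.1 CPM on average, while Unr, Mnt and scyl spread among replicates within several groups.

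Set against the other knockdowns directly, the Fl2d libraries were nearest to Vir and CG7358. The root mean square log2 distance over genes from a Fl2d library was 0.129 to 0.139 to the other Fl2d libraries, 0.151 to 0.182 to CG7358, 0.156 to 0.211 to Vir, 0.223 to 0.263 to Ime4_dMettl14 and 0.223 to 0.250 to Ctr. Fl2d against Vir gave 487 called genes (5.98%), 285 higher (3.50%) and 202 lower (2.48%), with 40 over 1.5-fold (0.491%). That count was 203 without Fl2d replicate 2 and 243 without Vir replicate 3. Fl2d against CG7358 gave 958 (11.8%), 431 higher (5.29%) and 527 lower (6.47%), and 598 without Fl2d replicate 1 and 617 without CG7358 replicate 1. Fl2d against Ime4_dMettl14 gave 2111 (25.9%), 1097 higher (13.5%) and 1014 lower (12.4%).

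A trio of genes was lower in Fl2d than in Vir, CG7358 and Ime4_dMettl14. O-fut1 averaged 98.0 ± 3.76 CPM in Fl2d and 176 ± 4.38, 184 ± 2.96 and 168 ± 5.95 CPM in Vir, CG7358 and Ime4_dMettl14 (SD, n = 3 each), with log2 differences of −0.85, −0.91 and −0.78 and SE of 0.04 each. In the Nito knockdown it stood at 141 ± 3.50 CPM and in Ctr at 172 ± 4.84 CPM. Rubicon, an inhibitor of autophagy on the X chromosome, averaged 14.1 ± 1.45 CPM in Fl2d and 24.8 ± 3.31, 25.4 ± 1.98 and 26.3 ± 0.491 CPM in these knockdowns, with 26.2 ± 1.94 CPM in Ctr. Its differences were −0.81, −0.85 and −0.90 with a SE of 0.09 each. CG8839 averaged 134 ± 6.53 CPM in Fl2d and 241 ± 1.90, 249 ± 1.28 and 266 ± 1.51 CPM in Vir, CG7358 and Ime4_dMettl14, but Nito was also low at 126 ± 4.25 CPM, with Ctr at 271 ± 10.8 CPM. The calls of these genes in edgeR's test held in all 6 fits that left out a library of Fl2d and Vir, or of Fl2d and CG7358. On chromosome 2R O-fut1 lies 337 kb and CG8839 1480 kb from fl(2)d.

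Further differences from Vir or CG7358 were found in other genes. Inos was at 421 ± 11.4 CPM in Fl2d and 223 ± 8.65 CPM in Vir, a difference of 0.91 ± 0.04 (edgeR adjusted p = 3.73e-19), with Ctr at 558 ± 10.7 CPM. CG1317 was at 193 ± 1.41 CPM in Fl2d and 107 ± 1.28 CPM in CG7358 (0.85 ± 0.03), with Ctr at 201 ± 5.49 CPM, and Irp-1B, an iron regulatory protein gene, at 73.8 ± 1.55 CPM in Fl2d and 44.7 ± 2.56 CPM in CG7358 (0.73 ± 0.04), with Ctr at 88.1 ± 1.89 CPM. These 3 differences lie mainly in the other knockdown, which was farther from Ctr. CG43188 was higher in Fl2d than in CG7358 (0.75 ± 0.13). The calls of mamo (1.19 ± 0.30) and Nipped-A (0.96 ± 0.26) as higher in Fl2d than in Vir were lost without Fl2d replicate 2, Vir replicate 2 or Vir replicate 3, and that of Nipped-A without Fl2d replicate 1 as well.

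Against the methyltransferase pair, CG34330 and CG15820 were lower in Fl2d. CG34330 averaged 27.0 ± 3.11 CPM in Fl2d and 67.5 ± 8.53 CPM in Ime4_dMettl14, with Ctr at 70.1 ± 13.8 CPM, a log2 difference of −1.32 ± 0.24 (edgeR adjusted p = 0.00133). CG15820 averaged 9.92 ± 0.756 CPM in Fl2d and 24.6 ± 1.55 CPM in Ime4_dMettl14, with Ctr at 24.1 ± 2.15 CPM (−1.31 ± 0.09). Both genes were about as low in the other knockdowns. CG34330 averaged 25.1, 28.3 and 29.1 CPM in Vir, CG7358 and Nito, and CG15820 9.36, 9.4 and 11.2 CPM. CG15784 and drpr were above Ctr in both Fl2d and Ime4_dMettl14, and were higher in Fl2d than in Ime4_dMettl14. CG15784 averaged 1644 ± 68.4 CPM in Fl2d and 533 ± 26.8 CPM in Ime4_dMettl14 (1.63 ± 0.09, edgeR adjusted p = 1.78e-08), and drpr 192 ± 5.07 CPM in Fl2d and 104 ± 6.93 CPM in Ime4_dMettl14 (0.89 ± 0.04). For drpr the Fl2d libraries also exceeded Vir, at 136 ± 2.53 CPM (0.50 ± 0.04, edgeR adjusted p = 2.06e-10), and CG7358, at 133 ± 4.47 CPM (0.53 ± 0.04), each in all 6 fits that left out a library. CG15784 was not called against Vir, at 1579 ± 249 CPM (0.06 ± 0.08), but was without Vir replicate 2. Against CG7358, at 1310.5 ± 20.2 CPM, it was called higher (0.33 ± 0.08, edgeR adjusted p = 0.0258) with no overlap of libraries, and that call held in 1 of 6 such fits, the one without Fl2d replicate 3. In the Nito knockdown CG15784 averaged 4365 ± 136 CPM, above Fl2d, with Ctr at 257 ± 12.6 CPM. There drpr averaged 53.1 ± 2.41 CPM, with Ctr at 60.9 ± 2.49 CPM.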

How the data were processed

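RNA of 18 S2R+ libraries was sequenced after polyA selection; the kit was directional, per the labels' protocols. Each deposited file gives the raw read counts of 1 library by FlyBase gene ID. STAR 2.5.1b, featureCounts 1.5.1 and build BDGP6 are named in the submitters' processing notes, while how strand, overlaps and multiply mapped reads were handled is not given in the sources used here. Names and positions come from the Ensembl annotation of the BDGP6 assembly, which held 17253 of 17559 IDs. The other 306 stayed in the tests, took 4.76% to 4.90% of counts in the 6 libraries, and are not described.

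Counts of all 18 libraries were fitted in R 4.3.3 with edgeR 4.0.16 (filterByExpr with its minimum count of 10, TMM, robust quasi-likelihood, 1 coefficient per group), and contrasts of Fl2d were tested with Benjamini-Hochberg adjustment over 8146 genes. The SE is the size of a log2 fold change divided by the root of F. The common biological coefficient of variation was 0.0432. No replicates agreed within sampling noise. The scripts were tested on simulated data.

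The members, the 48 lists and the named genes were chosen with earlier results of these data known, and no list was tested. Of 1105 list entries 1026 matched an ID. Genes named are the m6A genes, the 15 highest and 15 lowest called genes whose groups did not overlap at a mean log2 CPM of 3 or more, up to 4 called members of a list and 10 genes per direction over 1.5-fold by smallest p, up to 4 per direction in each direct comparison, and up to 10 genes with 1 Fl2d library over 1 log2 unit apart. Not all are given, and single list members and genes outside this rule were chosen after their values were seen. DESeq2 1.42.0 was an alternative.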

Additional observations from a re-analysis of the deposited data

How the results depend on the processing

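The fl(2)d decrease lay between −2.64 and −2.52 under every alternative run. The count of 2610 called genes in Fl2d against Ctr was 2622 with DESeq2 size factors (1299 higher, 1323 lower), 2160 with DESeq2's Wald test, 2562 without a filter, 2475 where 3 libraries had to exceed 5 CPM, 2200 with the 2 groups alone in the fit and 2117 to 2389 without 1 library. Genes over 1.5-fold numbered 170 with the CPM filter, which tests 6736 genes. A test against a 1.5-fold change (glmTreat) called 54 genes in Fl2d against Ctr, 13 higher and 41 lower, 5 against Vir, 5 against CG7358 and 44 against Ime4_dMettl14. It asks for more than a difference from 0. With only the groups compared in the fit, 243 genes were called against Vir and 553 against CG7358. Leaving out a library gave 203 to 582 against Vir, 598 to 1003 against CG7358 and 1653 to 1937 against Ime4_dMettl14, each at its lowest with fewer samples than the full fit. Of the genes named, none changed direction where called under any alternative. Calls lost numbered 9 to 20 per library left out, 13 with only the groups compared, 6 with DESeq2's Wald test and 193 with glmTreat.

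Replicate numbers are shared by the groups, and same-numbered Fl2d and Ctr libraries had deviations with correlations of 0.37, 0.14 and 0.06. For libraries of different number the correlations were −0.3 to 0.14. Only the first libraries of Fl2d and Ctr exceeded that range. The numbers were not taken to pair the libraries, but a pairing is not excluded. With the replicate number as a block 2576 genes were called, and 2 named genes lost their call. With 3 libraries a group and 15801372 to 17259281 counts each, a gene that was not called is not shown to be unchanged.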
